A study of Mus musculus with 10 samples.

Results

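Genes of the neuregulin pathway at the neuromuscular junction (NMJ) were followed in skeletal muscle of mice without desmin. The 10 genes include the ligand gene Nrg1, the receptor genes Erbb2, Erbb3 and Erbb4, and the ETS transcription factor genes Etv4, Etv5 and Gabpa. The others are Gabpb1, which encodes the partner subunit of Gabpa, the acetylcholinesterase gene Ache, and Colq, the gene of its collagen tail. These 10 genes were looked up by symbol among the 54232 genes of the deposited table, and all 10 were found. RNA had been sequenced from calf muscle, the gastrocnemius per the labels and the gastrocnemius and plantaris in parts of the study's text, of 5 homozygous desmin knock-out mice (Des -/-) and 5 wild-type mice (Des wt/wt) of one strain (B6J.129Sv-Destm1Cba/Cscl) at 3 months of age. The knock-out is present in all cells from the germline on, so it is not limited to muscle fibers or to the synapse. Each value is a regularized log (rlog) value of 1 mouse, which is a log2-scale expression level that accounts for library size and is shrunken to the average of the gene. A difference of 1 on this scale stands for a doubling, and the shrinkage understates differences, most of all for genes with few reads.

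Neuregulin-1 is a growth factor of the EGF family that is released by motor axons and also made by muscle. It binds ErbB3 or ErbB4, which pair with ErbB2, and the paired receptors signal through Ras, ERK and JNK kinases. In muscle nuclei under the synapse this signal is known to reach ETS factors, among them GABP and the PEA3 group members Etv4 and Etv5. GABP binds a short element called the N-box in genes of the postsynaptic membrane. Acetylcholinesterase ends each nerve signal by breaking down acetylcholine, and its collagen tail ColQ anchors it in the basal lamina of the synaptic cleft. Nuclei of the synapse are few among those of a muscle fiber, so whole-muscle RNA holds their transcripts mixed with those of the rest of the fiber and of other cells. ErbB3 in particular is also a receptor of Schwann cells, the glia that wrap the nerve.

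Promoters are shown for Etv5, which differed between the genotypes, and for both GABP subunit genes, whose windows hold the N-box core. RefSeq windows of GRCm38.p6 from 250 bases before to 50 after a start site were found for 6 of the 10 genes (8 windows), namely Erbb2, Erbb4, Etv5, Gabpa, Gabpb1 and Ache. They were not found for Nrg1, Erbb3, Etv4 and Colq. The 250 bases before the start are printed, 5′ to 3′ on the strand of the gene. Capitals mark each GGAA, the core that ETS factors read, on either strand (GGAA or TTCC), and the longer N-box core CCGGAA on either strand (CCGGAA or TTCCGG), which contains it.
Etv5 (second start, chr16:22438369-22438618, minus strand): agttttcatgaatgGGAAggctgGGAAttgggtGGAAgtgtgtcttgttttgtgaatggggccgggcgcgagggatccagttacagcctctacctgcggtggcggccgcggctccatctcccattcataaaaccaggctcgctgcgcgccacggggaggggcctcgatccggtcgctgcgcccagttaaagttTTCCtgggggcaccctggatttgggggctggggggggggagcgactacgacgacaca
Gabpa (chr16:84834874-84835123, plus strand): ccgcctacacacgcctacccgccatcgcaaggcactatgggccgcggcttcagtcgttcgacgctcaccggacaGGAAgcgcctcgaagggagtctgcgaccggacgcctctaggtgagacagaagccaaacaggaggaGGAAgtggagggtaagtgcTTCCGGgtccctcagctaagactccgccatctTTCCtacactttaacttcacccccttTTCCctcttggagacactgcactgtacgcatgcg
Gabpb1 (first start, chr2:126675593-126675842, minus strand): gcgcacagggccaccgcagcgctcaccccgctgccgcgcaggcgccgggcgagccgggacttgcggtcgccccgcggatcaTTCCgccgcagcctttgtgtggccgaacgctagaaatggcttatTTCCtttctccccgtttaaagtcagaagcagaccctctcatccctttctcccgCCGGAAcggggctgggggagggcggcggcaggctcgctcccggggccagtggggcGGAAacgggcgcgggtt
CCGGAA was present once each in 3 of the 8 windows, those of Gabpa (its first base 92 bases before the start), Gabpb1 (72 bases before) and Erbb4 (137 bases before), while 14.9% of all 32851 windows hold it. It was not in the windows of Erbb2, Ache or either start of Etv5. GGAA was in 6 of the 8 windows and in 96.0% of all windows, so its presence separates few genes. The Etv5 window held 6 GGAA in all, 4 of them in the printed bases, whereas the window of the other Etv5 start and that of Ache held none. These matches describe letters in these windows and say nothing about binding.

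The libraries were compared first. Des itself was between 16.10 and 17.74 in wild-type and between 11.76 and 11.89 in desmin knock-out mice, as labelled. Wild-type mouse 3 stood apart from the others of its genotype, with a mean correlation of 0.982 compared with 0.989 to 0.991 for the other 4 wild-type mice. When limma estimated a weight for each library, it gave 0.1002 to wild-type mouse 3 and 0.275 to wild-type mouse 4. The other 8 had 0.793 or more. Knock-out mice 4 and 5 had the highest weights, 4.21 and 3.22, against 0.90 to 1.02 for knock-out mice 1 to 3. Fits with library weights thus rest mostly on knock-out mice 4 and 5 in that genotype. Wild-type mice 3 and 4 together held the lowest or the highest pair of wild-type values in 7 of the 10 genes. The same held for 46.9% of all tested genes. The differences of the tested genes are therefore given without these 2 wild-type mice too. The labelled tissue was matched by an abundant Myh4, the gene of the fast myosin heavy chain IIb, with means of 19.88 in knock-out and 20.58 in wild-type mice.

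Of the 10 genes, 8 reached the expression limit for testing, a mean of at least log2(10), and Nrg1 and Erbb4 did not. Erbb3 and Etv5 were higher in desmin knock-out muscle and none was lower, by limma with p-values adjusted over the 14289 tested genes and a threshold of 0.05. That is 2 of 8 genes, where 13.7% of all tested genes passed in either direction, 7.70% of them higher and 5.99% lower. With so few genes this share is not set apart from the background. The means of 7 of the 8 genes were higher in knock-out mice, and the median difference was 0.26, compared with -0.0029 over all tested genes. In 1 of the 8, Erbb3, all knock-out values lay above all wild-type values, which held for 7.45% of tested genes (14.4% had no overlap in either direction). At an unadjusted p under 0.05, 3 of the 8 passed, as did 27.6% of all tested genes.

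**Figure D1:**
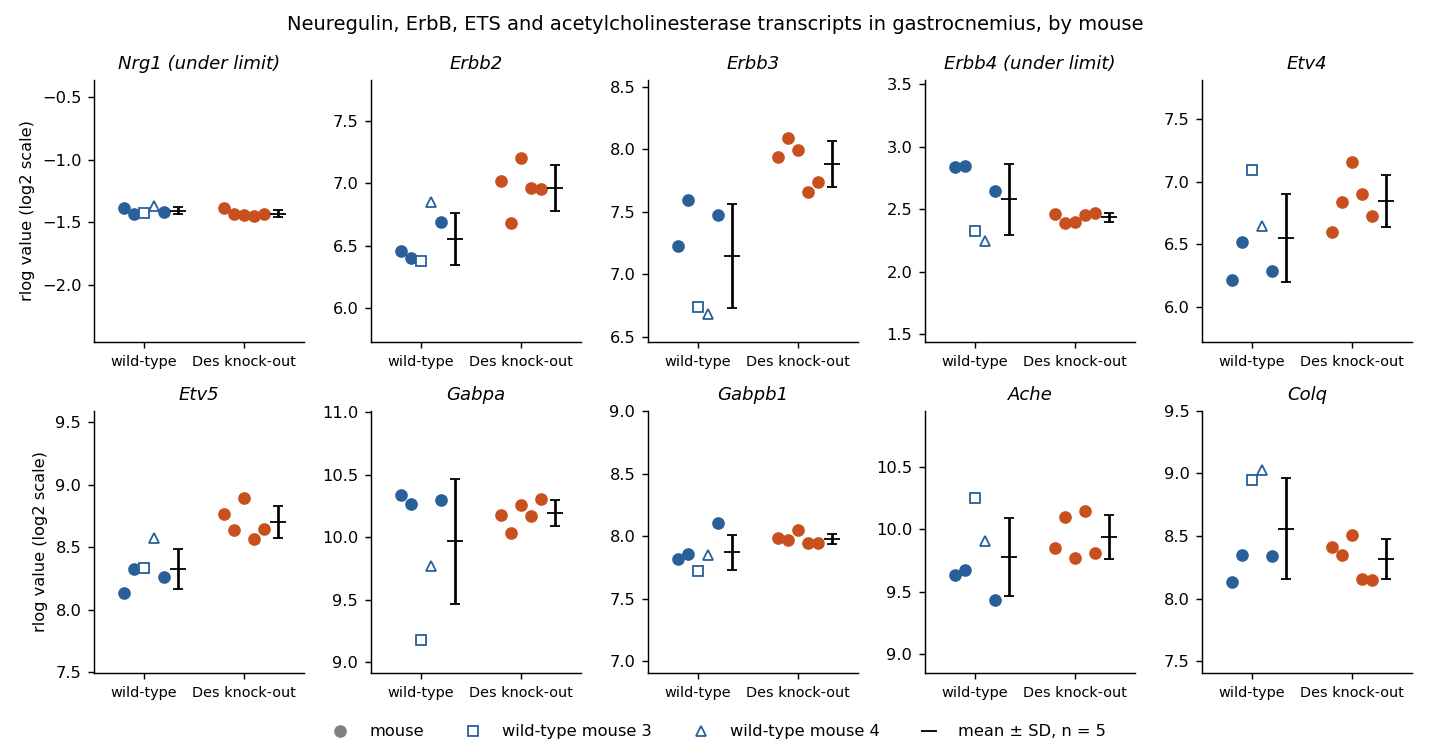
Each panel plots the rlog value (log2 scale, 2.1 units high in every panel) of 1 gene in 5 wild-type (blue) and 5 desmin knock-out mice (orange), with the mean and SD of each genotype as a black mark. Open squares and triangles are wild-type mice 3 and 4, which lie lowest for Erbb3, Erbb4 and Gabpa and highest for Colq.

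Nrg1 (ENSMUSG00000062991, chromosome 8 of GRCm38, 31814551 to 32884029) was at the lower end of what the table resolves. Its values ran from -1.45 to -1.39 in knock-out and from -1.43 to -1.37 in wild-type mice. Such values below 0 come from genes with almost no reads, so they hold little information on the ligand. The difference was -0.02 (95% interval -0.05 to 0.01, from a limma fit without the expression limit, adjusted p = 0.406). Some other ligands of the family that act through EGF or ErbB receptors were better measured. Of 10 listed, 4 were tested, and 2 of them were higher and none lower. Only 1 was higher in 10 of 19 alternatives, among them without knock-out mouse 1, 3, 4 or 5 and without wild-type mouse 4 or 5. Hbegf, which encodes heparin-binding EGF, was between 9.82 and 9.94 in knock-out and between 8.86 and 9.78 in wild-type mice, which is 0.73 higher (limma, standard error 0.15, adjusted p = 0.00545). Its knock-out values were all above the wild-type values, although only by a small margin over wild-type mouse 1. Egf, the founding ligand of the family, was higher by 0.33 (standard error 0.09, adjusted p = 0.0353 from limma) with groups that overlapped. Nrg4 had a difference of -0.11 and Btc, which encodes betacellulin, one of 0.06, and neither passed (limma, adjusted p = 0.648 and 0.852). Nrg2, Nrg3, Areg, Ereg, Epgn and Tgfa were under the expression limit.

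Erbb3 (ENSMUSG00000018166, chromosome 10, 128567523 to 128589652) encodes the receptor that binds neuregulin but has little kinase activity of its own. It was 7.94, 8.09, 7.998, 7.66 and 7.74 in knock-out mice 1 to 5, and 7.23, 7.59, 6.74, 6.69 and 7.47 in wild-type mice 1 to 5. All 5 knock-out mice lay above all wild-type mice, and wild-type mice 3 and 4 were lower than the other 3. The means were 7.88 ± 0.18 (SD, n = 5) and 7.14 ± 0.42 (SD, n = 5). The knock-out mean was higher by 0.74, or 1.67-fold on the rlog scale, with a standard error of 0.18 (limma, adjusted p = 0.0135). By an exact two-sided permutation test p was 0.00794, which is as low as 5 mice against 5 can reach. Without wild-type mice 3 and 4 Erbb3 was higher by 0.45 (limma, standard error 0.12, adjusted p = 0.0174) and with library weights by 0.40 (adjusted p = 0.0218), a shift of over 1.5 times in both cases. It passed in all 19 alternatives, with adjusted p between 0.00651 and 0.0423 (limma).

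Since Erbb3 is also a Schwann cell gene, markers of these cells were set beside it. Of 14 Schwann cell markers, 12 were tested, and 1 was higher and none lower, with a median difference of 0.06. The defining markers S100b (difference 0.12) and Sox10, a transcription factor gene (-0.13), had adjusted p of 0.637 and 0.606 (limma). The summed level of the list (2 to the power of the rlog values, relative to the wild-type median) ran from 0.864 to 1.16 in knock-out and from 0.706 to 1.20 in wild-type mice, so the groups overlapped. None of the 14 was at 0 in all mice, although Ngfr and Gfap were under the limit. The called marker was Egr2, a zinc finger factor of myelinating Schwann cells that is also an immediate-early gene. It was higher by 1.02 (standard error 0.15, adjusted p = 4.47e-04 from limma). In 2 of the 12 tested markers, Egr2 among them, all knock-out values lay above all wild-type values, and in 0 all lay below. Over all tested genes 7.45% lay above in this way. In bulk tissue, fewer cells of a type and less RNA per cell cannot be told apart.

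Erbb2 (ENSMUSG00000062312, chromosome 11, 98412470 to 98437716), the partner without a ligand of its own, was 7.02, 6.69, 7.20, 6.96 and 6.95 in knock-out mice 1 to 5. In wild-type mice 1 to 5 it was 6.46, 6.40, 6.38, 6.85 and 6.69. Knock-out mice 1, 3, 4 and 5 lay above every wild-type mouse, and knock-out mouse 2 lay within their range. Knock-out minus wild-type was 0.41 (standard error 0.13) and had an adjusted p of 0.052 (limma) and thus just missed the threshold, with a 95% interval from 0.13 to 0.69. The exact permutation test gave p = 0.0238. It passed in 5 of 19 alternatives, among them without wild-type mice 3 and 4 (0.45, adjusted p = 0.0207, limma). The differences of Erbb3 and Erbb2 were also compared within each mouse, which removes the scaling of the library. Erbb3 minus Erbb2 was 0.92 ± 0.28 in knock-out compared with 0.59 ± 0.51 (both SD, n = 5) in wild-type mice, and this was within the spread (exact permutation test, p = 0.238, 0.476 after adjustment over 4 pairs of genes). Without wild-type mice 3 and 4 the mean of this quantity differed by 0.0041.

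Erbb4 (ENSMUSG00000062209, chromosome 1, 68032186 to 69108059), a receptor that binds neuregulin and is itself an active kinase, was under the expression limit. It was 2.46, 2.39, 2.40, 2.45 and 2.47 in knock-out mice 1 to 5 and 2.84, 2.84, 2.33, 2.24 and 2.65 in wild-type mice 1 to 5. Knock-out mice were close together, within the wild-type range, while wild-type mice 1, 2 and 5 were above all of them and 3 and 4 below. The difference was -0.15 (95% interval -0.43 to 0.14, adjusted p = 0.591 from a limma fit without the limit). Without wild-type mice 3 and 4 it was -0.34 (adjusted p = 0.0513). Erbb4 lies 6.25 Mb from the targeted gene Des on the same chromosome, where knock-out mice can carry DNA of the strain in which the allele was made, and the part of this in its values was not tested.

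**Figure D2:**
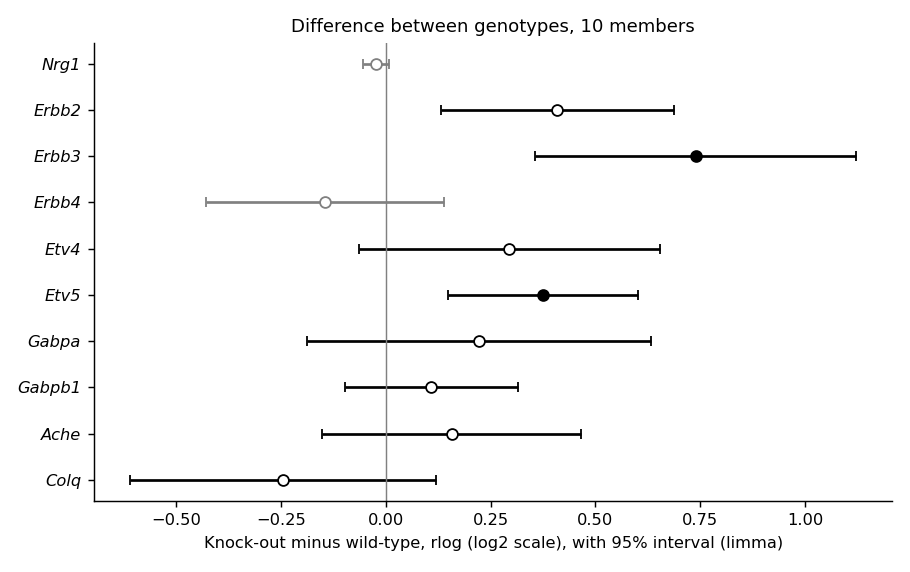
Points give knock-out minus wild-type differences (rlog, log2 scale) and bars their 95% intervals from limma. Filled points passed at an adjusted p under 0.05 (Erbb3 and Etv5), and the grey points of Nrg1 and Erbb4 come from the fit without the expression limit.

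Genes around the receptors were mixed. Of 13 genes for receptor partners, ligand-releasing proteases and inhibitors, all of them tested, 1 was higher and 1 lower (median 0.25). The median was that of Egfr, which was 8.76 to 8.91 in knock-out and 8.56 to 8.94 in wild-type mice 1, 2 and 5. Wild-type mice 3 and 4 were lower, at 8.11 and 8.36, so this median rests on them in part. Without these 2 mice, 0 genes of the list were higher and 2 lower. Errfi1, which encodes an inhibitor of EGF and ErbB2 receptor kinases, was higher by 0.44 (standard error 0.13, adjusted p = 0.0438 from limma), but none of this list was higher in 14 of 19 alternatives, among them without each knock-out mouse, without wild-type mouse 2, 3, 4 or 5, and without wild-type mice 3 and 4 together. Bace1, which encodes the protease that processes neuregulin in nerve, was lower in all 5 knock-out mice (10.62 to 10.83) than in any wild-type mouse (up to 11.50), a log2 difference of -0.45 (limma, standard error 0.10, adjusted p = 0.00838). Of 28 signalling relays, 27 were tested, and 2 were higher and 3 lower with a median of -0.0069. Over the alternatives 0 to 2 were higher and 2 to 6 lower. Those with the smallest adjusted p were the JNK2 gene Mapk9 (-0.37, adjusted p = 0.00911), the kinase gene Akt1 (-0.61, adjusted p = 0.0151) and the kinase gene Pak1 (-0.59, adjusted p = 0.0228; all limma).

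Etv5 (ENSMUSG00000013089, chromosome 16, 22381309 to 22439719), also named Erm, encodes an ETS factor enriched in nuclei under the synapse. It was 8.77, 8.64, 8.89, 8.56 and 8.65 in knock-out mice 1 to 5 and 8.14, 8.33, 8.33, 8.58 and 8.26 in wild-type mice 1 to 5. Knock-out mice 1, 2, 3 and 5 lay above every wild-type mouse, and the overlap came from wild-type mouse 4, which lay just above knock-out mouse 4. Etv5 was higher by 0.37 in knock-out mice, or 1.30-fold on the rlog scale, with a standard error of 0.11 (limma, adjusted p = 0.0309) and an exact permutation p of 0.0159. The size was between 0.33 and 0.46 over 19 alternatives, the highest without wild-type mice 3 and 4, but the adjusted p passed in 9 of them only. It was lost with median centring (adjusted p = 0.0614) and quantile normalization (0.0519), and when any one of knock-out mice 1, 2, 3 and 5 or wild-type mice 1, 2 and 5 was left out (limma, adjusted p up to 0.0824).

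Etv4 (ENSMUSG00000017724, chromosome 11, 101769742 to 101785371), its relative also named Pea3, was 6.60, 6.84, 7.16, 6.91 and 6.73 in knock-out mice 1 to 5. In wild-type mice 1 to 5 it was 6.21, 6.52, 7.10, 6.65 and 6.28. Wild-type mouse 3 was high, above 4 of the knock-out mice, while wild-type mouse 4 lay within the knock-out range, and wild-type mice 1, 2 and 5 lay below it. The difference of 0.29 (95% interval -0.06 to 0.65) did not pass (adjusted p = 0.275 from limma). Without wild-type mouse 3 it was 0.43 and passed (adjusted p = 0.0423 from limma), so this 1 library decided the call, and without wild-type mice 3 and 4 it was 0.51. Within each mouse, Etv5 minus Etv4 was 1.86 ± 0.20 in knock-out compared with 1.78 ± 0.31 (both SD, n = 5) in wild-type mice (exact permutation test, p = 0.722, also 0.722 adjusted over 4 pairs), and the sign turned without wild-type mice 3 and 4 (-0.05).

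The 2 subunits of GABP were not called. Gabpa (ENSMUSG00000008976, chromosome 16, 84834925 to 84863779), which encodes the DNA-binding subunit, was 10.18, 10.03, 10.26, 10.17 and 10.31 in knock-out mice 1 to 5 and 10.34, 10.27, 9.17, 9.77 and 10.29 in wild-type mice 1 to 5. The knock-out mice lay within the range of the wild-type mice, of which only 3 and 4 were lower. The difference was 0.22 (95% interval -0.19 to 0.63, adjusted p = 0.482 from limma), and it turned to -0.11 without wild-type mice 3 and 4 (adjusted p = 0.29). Gabpa shares 397 bases of its exons (6.98%) with the abundant Atp5j on the opposite strand (14.31 in knock-out and 14.40 in wild-type mice), and whether counting used strand is not given in the sources used here. Gabpb1 (ENSMUSG00000027361, chromosome 2, 126627442 to 126676337), which encodes a subunit that activates transcription, ranged from 7.94 to 8.05 in knock-out and from 7.73 to 8.10 in wild-type mice. Its difference was 0.11 (95% interval -0.10 to 0.31, adjusted p = 0.494 from limma), and 0.054 without wild-type mice 3 and 4. Gabpa minus Gabpb1 did not differ beyond the spread (2.21 ± 0.11 and 2.10 ± 0.43; SD, n = 5; exact permutation test, p = 0.659, 0.722 adjusted over 4 pairs), and the difference of 0.11 turned to -0.16 without wild-type mice 3 and 4.

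Among 24 further ETS factor and GABP genes, 17 were tested and none passed in either direction (limma), with a median difference of -0.05. At an unadjusted p under 0.05, 4 of the 17 passed, compared with 27.6% of all tested genes. Leaving out wild-type mice 3 and 4 gave 1 higher and 2 lower genes and a median of -0.15. Etv1, the third member of the PEA3 group, had a difference of 0.43 (adjusted p = 0.119), and Gabpb2, the other GABP beta gene, one of 0.23 (adjusted p = 0.308, both limma). Feedback genes that ERK signalling is known to induce were mixed. Of 13 such genes, 11 were tested, and 3 were higher and none lower (median 0.13, 0.026 without wild-type mouse 3 and 0.0035 without wild-type mice 3 and 4), and over the alternatives 2 to 5 were higher. Dusp4, which encodes a nuclear phosphatase for ERK, was between 6.17 and 6.79 in knock-out and between 5.27 and 5.76 in wild-type mice, which is 1.13 higher (limma, standard error 0.14, adjusted p = 1.14e-04). Dusp5, a second nuclear ERK phosphatase, differed by 0.91 (standard error 0.15, adjusted p = 0.00133 from limma), from 6.46 to 6.73 against 5.15 to 6.07. Both separated the genotypes fully. Spry2, an inhibitor of receptor tyrosine kinase signalling, was higher by 0.40 (standard error 0.11, adjusted p = 0.0313 from limma), whereas the cytoplasmic ERK phosphatase gene Dusp6 had a difference of 0.13 (adjusted p = 0.578).

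**Figure D3:**
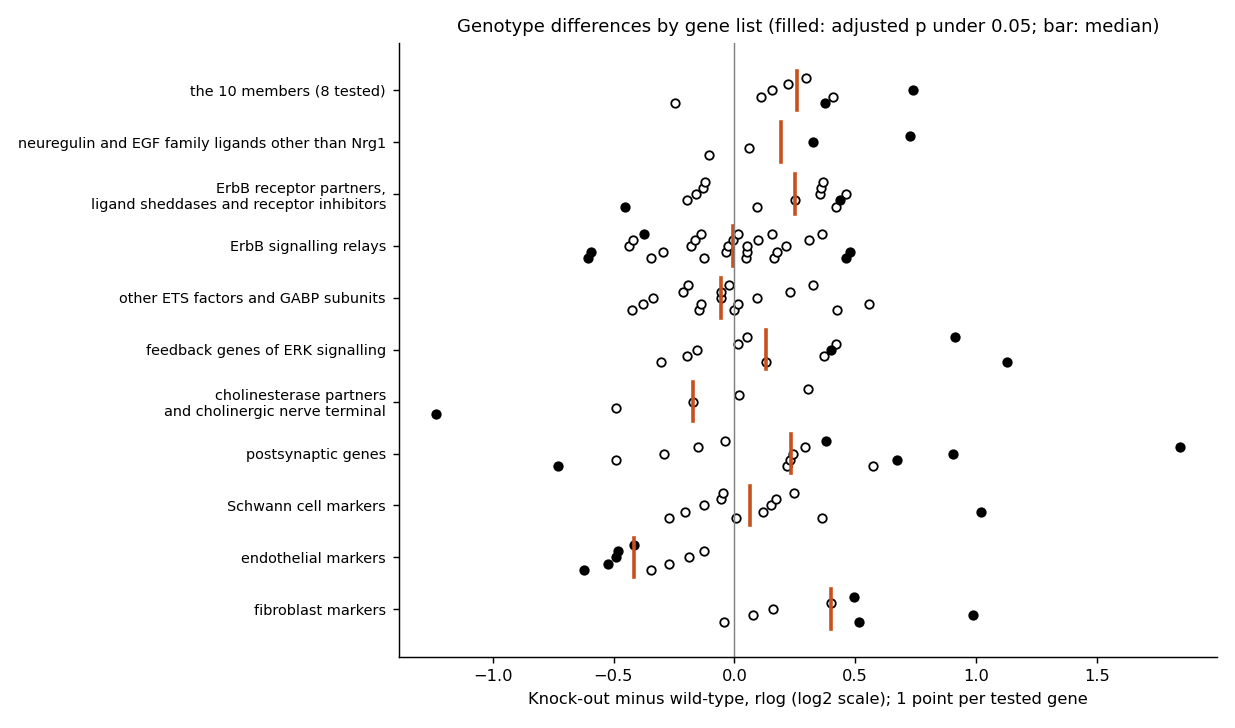
Each point is 1 tested gene at its knock-out minus wild-type difference (rlog, log2 scale), filled where the adjusted p was under 0.05, with the median of each list as an orange bar. In the list of other ETS factors no point is filled, and the feedback genes of ERK signalling reach 1.13 (Dusp4).

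Ache (ENSMUSG00000023328, chromosome 5, 137287519 to 137294466), the gene of acetylcholinesterase, was 9.85, 10.10, 9.76, 10.15 and 9.81 in knock-out mice 1 to 5. In wild-type mice 1 to 5 it was 9.63, 9.67, 10.25, 9.90 and 9.43. Wild-type mouse 3 had the highest value of all 10, and wild-type mice 1, 2 and 5 were below every knock-out mouse. The difference was 0.16 (95% interval -0.15 to 0.47, adjusted p = 0.507 from limma). Without wild-type mice 3 and 4 it was 0.36 and passed (adjusted p = 0.022 from limma), as it did with library weights (0.33, adjusted p = 0.0185). With 1 mouse left out it ranged from 0.071 (without wild-type mouse 5, adjusted p = 0.766) to 0.28 (without wild-type mouse 3) and did not pass. Ache shares 98 bases of its exons (2.12%) with Gm42456 on the opposite strand, which was under the expression limit.

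Colq (ENSMUSG00000057606, chromosome 14, 31523082 to 31591343), the gene of the collagen tail, was 8.41, 8.35, 8.51, 8.16 and 8.14 in knock-out mice 1 to 5 and 8.13, 8.34, 8.95, 9.03 and 8.34 in wild-type mice 1 to 5. Wild-type mice 3 and 4 were above all others, and the remaining 8 mice overlapped. The difference was -0.24 (95% interval -0.61 to 0.12, adjusted p = 0.377 from limma), and 0.04 without these 2 mice. Ache minus Colq was 1.62 ± 0.28 in knock-out compared with 1.22 ± 0.24 (both SD, n = 5) in wild-type mice. This difference of 0.40 did not pass (exact permutation test, p = 0.0556, and 0.222 adjusted over 4 pairs).

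Of 8 further genes for partners of cholinesterases and for the cholinergic nerve terminal, 5 were tested, and 1 was lower and none higher (median -0.17). Prima1 encodes the membrane anchor that holds acetylcholinesterase at cell surfaces, in nerve and in muscle. It was 3.90, 3.74, 3.91, 3.97 and 4.08 in knock-out mice 1 to 5, against 4.68 to 5.74 in wild-type mice, so the genotypes were fully apart at a low level. The log2 difference was -1.23 (limma, standard error 0.17, adjusted p = 2.47e-04). Bche, the gene of butyrylcholinesterase, had a difference of 0.31 (adjusted p = 0.232), and Hspg2, the gene of perlecan to which ColQ binds, one of 0.02 (adjusted p = 0.93, both limma). Chat, which encodes the enzyme that makes acetylcholine in motor neurons, was near -2.06 in all mice, and the transporter genes Slc18a3 and Slc5a7 were listed at 0. The cell bodies of motor neurons lie outside muscle.

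**Figure D4:**
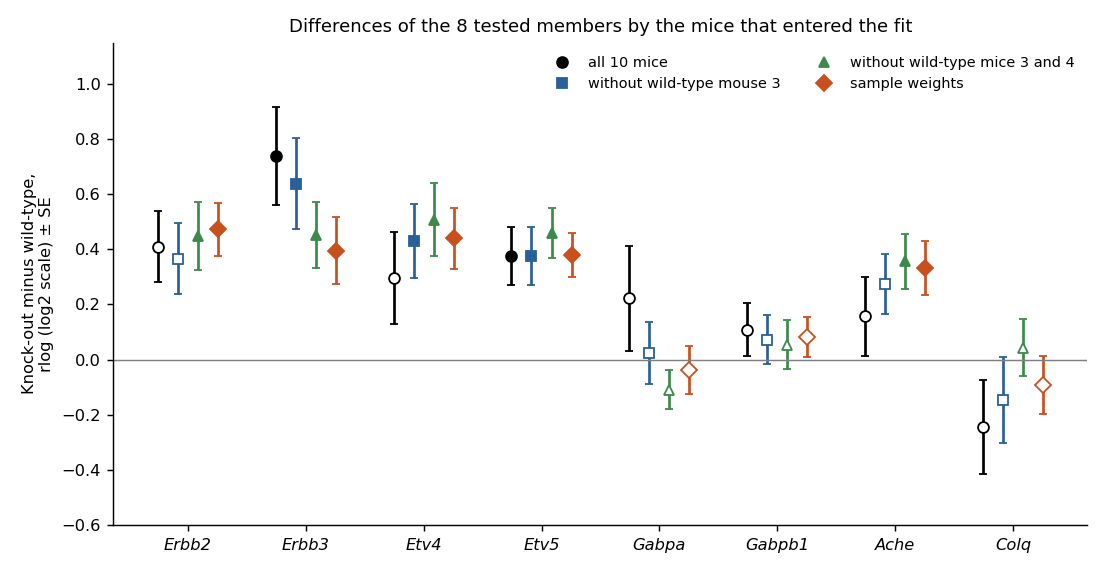
Knock-out minus wild-type differences (rlog, log2 scale, bars are standard errors) of the 8 tested genes are plotted for all 10 mice, without wild-type mouse 3, without wild-type mice 3 and 4, and with library weights, filled where the adjusted p was under 0.05. Without wild-type mice 3 and 4 and with library weights, Erbb3 falls from 0.74 to 0.45 and 0.40 but stays filled. Erbb2, Etv4 and Ache become filled in both of these settings. Gabpa crosses 0 in both, and Colq only without wild-type mice 3 and 4.

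Without wild-type mice 3 and 4, a setting chosen after the values were seen, 5 of the 8 tested genes were higher (Erbb2, Erbb3, Etv4, Etv5 and Ache) and none was lower. The share of all tested genes that were higher rose with it, from 7.70% to 11.7%. With library weights the same 5 genes passed, and 14.6% of all tested genes were higher. With wild-type mouse 3 alone left out, 3 passed (Erbb3, Etv4 and Etv5), and 9.34% of all tested genes were higher.

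Levels were compared between genes only per length, as the mean rlog value minus log2 of the exon length in kb. In wild-type mice the order was Ache (7.57), Gabpa (7.46), Colq (6.63), Etv5 (6.29), Etv4 (4.92), Gabpb1 (4.92), Erbb3 (4.56), Erbb2 (4.17), Erbb4 (-1.05) and Nrg1 (-4.78). Neighbours from Ache down to Etv5, and from Etv4 down to Erbb2, overlapped over the 5 mice, and the steps from Etv5 to Etv4, from Erbb2 to Erbb4 and from Erbb4 to Nrg1 were free of overlap. In knock-out mice Etv5 (6.67) stood above Colq (6.39) and Erbb3 (5.29) above Etv4 (5.21) and Gabpb1 (5.02), with overlap between Etv5 and Colq and among all of Erbb3, Etv4 and Gabpb1. All exons of a gene enter its length, whether used in muscle or not. Ranked among all tested genes by rlog value, without regard to length, Gabpa was at the 72.3rd percentile and Etv4 at the 29.0th.

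Postsynaptic genes, listed as such and not as known targets of neuregulin or ETS factors, were mixed. Of 14 genes, all tested, 4 were higher and 1 was lower (median 0.24). The acetylcholine receptor subunit genes Chrng, Chrnd, Chrna1 and Chrnb1 were the 4, with differences of 1.85, 0.90, 0.67 and 0.38, and the sodium channel gene Scn4a was the lower one (-0.73). Over the alternatives 3 to 6 were higher and 1 to 3 lower. Chrne, whose promoter holds a known N-box, had a difference of 0.24 (adjusted p = 0.18), and Utrn, the gene of utrophin with a known N-box, one of 0.22 (adjusted p = 0.473, both limma). Other cells of the tissue were also examined, since Nrg1, ErbB receptors and ETS factors are used by many of them. Endothelial markers were lower in 5 of 9 and higher in none (median -0.41), for example Vwf (-0.62), Cdh5 (-0.52) and Pecam1 (-0.49), and their summed level ran from 0.613 to 0.825 in knock-out and from 0.828 to 1.08 in wild-type mice. Of 7 fibroblast markers 3 were higher (Lum by 0.99, Col1a1 by 0.50 and Col3a1 by 0.52) and none lower, while Pdgfra had 0.08. Their summed level was 1.08 to 1.66 in knock-out and 0.7996 to 1.59 in wild-type mice. When wild-type mice 3 and 4 were left out, 1 fibroblast marker was higher and the median difference was 0.041, compared with 0.40 with all mice. None of 8 macrophage markers passed in limma (Adgre1 0.08, Cd68 0.21), and 1 had an unadjusted p under 0.05, compared with 27.6% of all tested genes. Of 6 satellite cell markers 1 was lower, Myod1 (-0.47), and Pax7 had 0.01. Of 5 erythroid markers 2 were lower, Alas2 (-0.9999) and Hbb-bs (-0.74), and of 9 myofiber markers 1 was higher, Myh2 (0.77), and 2 lower, Actn3 (-0.97) and Myh4 (-0.71). The part of these cells in the values of Erbb3 and Etv5 was not tested.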

How the data were processed

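RNA-seq data of calf muscle were used, from 5 mice without desmin and 5 with it. Per the labels, the authors trimmed reads with cutadapt 2.5, aligned them with STAR 2.5.4a to GRCm38 and counted them with featureCounts (Subread 1.6.1), from libraries of a stranded mRNA kit. The authors deposited log2-scale rlog values made with DESeq2, so depth and counting error are unknown. The methods speak of pooled RNA, whereas the table has 1 column per mouse, and each column was 1 replicate. P-values measure the spread between these columns.

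An expression limit, log2(10) for the mean over all mice, left 14289 of 54232 genes for limma 3.58.1 (R 4.3.3) (trended prior variance, two-sided, Benjamini-Hochberg over all tested genes; a call is an adjusted p under 0.05), a fit checked beforehand on made-up data with known differences. Genes under the limit came from the fit without it. Symbols, positions and exon lengths are those of GENCODE M21. Lists were described by counts and medians. Named are the 10 genes, Des, up to 3 called genes per list, defining cell type markers and the genes nearest in pattern. The values of 1 defining marker are not reported here. Further list genes were named for their role, and the 4 pairs of genes were chosen, after their values were seen. The genes and lists were chosen with earlier results of these data known. The fits were repeated without the limit, with a limit of log2(50), quantile normalization, median centring, one prior variance for all genes, library weights, a replicate block, 4 Y-linked transcripts as covariate, an adjusted p under 0.01 and each mouse left out.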

Additional observations from a re-analysis of the deposited data

Results flagged for a closer look

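In the 20 groups of 5 mice (10 genes in both genotypes), 1 had a mouse far from the other 4. This was knock-out mouse 1 for Nrg1 with -1.39, at a level with almost no reads. Chance gives about 1 in 20 groups.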

How the results depend on the processing

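Erbb3 kept its direction and an adjusted p under 0.05 (limma) in all 19 alternatives. With library weights, Erbb2 (0.47, adjusted p = 0.00143), Etv4 (0.44, adjusted p = 0.00678) and Ache (0.33, adjusted p = 0.0185) passed as well, and Gabpa turned to -0.037. Without wild-type mice 3 and 4, Erbb2 (0.45), Etv4 (0.51) and Ache (0.36) passed, while Gabpa turned to -0.11 and Colq to 0.043. With Y-linked transcripts as covariate Etv4 passed (0.47) and Gabpa turned to -0.054. The mean of these transcripts was lowest in wild-type mice 3 (9.52) and 4 (9.88), against 10.22 to 10.62 in all other mice. The covariate thus marks the same 2 libraries and is not a separate check. Erbb2 passed with a single prior variance (0.41). Nrg1 passed after median centring (-0.088), which also moved Erbb4 from -0.15 to -0.21. Nrg1 has almost no reads and varies little, so a shift of whole libraries can make it pass. No genotype difference of Nrg1 is read from this call. Etv5 lost its call with median centring (0.33), quantile normalization (0.33) and the replicate block (0.37), and the cause was not tested. With 1 mouse left out, Etv5 ranged from 0.33 to 0.44, Erbb2 from 0.35 to 0.48 (passing without knock-out mouse 2 or wild-type mouse 4) and Etv4 from 0.21 to 0.43.

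The number of the 8 tested genes that were higher was 1 with median centring, quantile normalization or the replicate block, 5 with library weights or without wild-type mice 3 and 4, 0 at an adjusted p under 0.01 (limma), and 1 to 3 with 1 mouse left out. None was lower in any alternative. In all, 1100 were genes with a genotype difference, higher in knock-out mice, and 856 were genes with a genotype difference, lower in them. These counts became 2093 and 2127 with library weights, 1677 and 1717 without wild-type mice 3 and 4, and 623 and 371 at an adjusted p under 0.01. With 1 mouse left out there were 560 to 1161 lower genes, the fewest without knock-out mouse 5. Counts for the lists moved by over 1.5 times, or to or from 0, in 114 of 532 cases.

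The replicate numbers did not pair the mice: the correlation of deviations between mice with the same number ran from -0.22 to 0.067, and 0 of 10 mice correlated best with their own number. With the replicate block, the count of genes with a genotype difference, higher in knock-out mice, was 913 and that of genes with a genotype difference, lower in them, 666. Low levels limit what can be said of Nrg1 and Erbb4.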

Other observations

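The genes whose pattern over the 10 mice was nearest to Erbb3, by the root mean square distance of values centred on each gene's mean, were Myh10 (distance 0.107), Ptpn13 (0.128) and F2r (0.148), where the median over all tested genes was 0.505. Myh10 encodes a non-muscle myosin heavy chain, Ptpn13 a tyrosine phosphatase and F2r the thrombin receptor. Their differences were 0.81, 0.68 and 0.77, and all 3 passed (limma, adjusted p = 0.00365, 0.0298 and 0.00129). They were picked for likeness to Erbb3 over values that hold its genotype gap, so these p-values add no separate result.

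Nearest to Etv5 were Myd88 (0.0873), Hmces (0.0923) and Chrne (0.0923), with a median of 0.321 over all tested genes. Myd88 encodes an adaptor of innate immune receptors, and Chrne the adult subunit of the acetylcholine receptor. Their differences were 0.27, 0.28 and 0.24, and none passed (limma, adjusted p = 0.0837, 0.114 and 0.18). Distances between genes in the same 10 mice share libraries and scaling, so they describe likeness only.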
